A study of Homo sapiens with 14 samples.

Results

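The long arm of chromosome 16 (16q) was followed through 58 genes in MDA-MB-231 cells and in 6 lines edited from them with CRISPR/Cas9. The 58 genes lie beyond 46 Mb on chromosome 16 of GRCh37 and run from VPS35 near the centromere to GAS8 near the telomere. They were picked across the arm because all 6 edited lines were lower than the parental cells there, so the measured values chose them, and every difference from parental below is a description without a test. The table held 19410 genes, of which 13540 passed the filter on low values (at least 1 TPM in at least 2 libraries). All 58 members passed it, and 199 other 16q genes and 299 genes of the short arm (16p) passed it as well.

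MDA-MB-231 is a human triple-negative breast cancer line, grown without treatment in DMEM with serum. The 7 groups were the parental cells (genotype Parental), the single knockouts SAP30-KO1, SAP30-KO2, MLL1-KO1 and MLL1-KO2, and the double knockouts SIN3A+SIN3B-DKO1 and SIN3A+SIN3B-DKO2, each in 2 libraries. SAP30 is a subunit of the SIN3 histone deacetylase complex, SIN3A and SIN3B are its alternative scaffolds, and MLL1 is a histone H3 lysine 4 methyltransferase. Guides were delivered from a lentiviral CRISPR vector, and each edited line was a mixture of selected knockout clones. The parental cells carried no edit, and a control edited with a neutral guide was not used here. The study's methods count replicates as biological samples or experiments, but the labels give only replicate numbers and do not tie the 2 libraries of a group to separate cultures, so the p-values below measure the spread between these libraries, which may be partly technical.

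Genes of a chromosome arm share no common function, and RNA from most of them is set gene by gene through promoters and RNA stability. The 16q arm carries the adhesion gene CDH1, the chromatin architecture gene CTCF and the RUNX partner gene CBFB, and the arm is one of those often lost in breast tumours. The members also include subunits of large assemblies, such as the CCR4-NOT deadenylase, the origin recognition complex and retromer, whose other subunits are mostly encoded on other chromosomes. The measurements here were of RNA only, DNA was not measured, and what set the level of the arm was not tested.

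Libraries held 18415036 to 23162682 reads, with a median of 21648530, as recovered from the steps between the values. The values were TPM, per gene length and per library, and those of each library added up to 1000000, so a change in total RNA per cell cannot be seen, and fewer expressing cells and less RNA per cell cannot be told apart. SAP30 stood at 78.9 and 82.8 TPM in the parental libraries and at 2.75 to 4.96 TPM in its 4 knockout libraries. MLL, the gene of MLL1, went from 49.0 and 56.7 TPM to between 15.8 and 27.7 TPM in the MLL1-KO libraries. Over all 12 edited libraries its median was 31.5 TPM and its highest value 55.7 TPM, so lower MLL RNA was not confined to the MLL1-KO lines. SIN3B went from 75.1 and 77.4 TPM to between 43.5 and 50.2 TPM, whereas SIN3A was at 55.1 to 62.5 TPM against 43.1 and 45.4 TPM in the parental cells, so its RNA goes against the label, and those 4 libraries are the libraries labelled SIN3A+SIN3B-DKO throughout. An RNA level does not show whether a protein is made. The line's defining markers VIM, CD44 and EGFR were present in all 14 libraries, ESR1 and PGR were at 0.191 TPM or less, and CDH1, itself on 16q, was at 1.07 and 1.25 TPM in parental and at 0 to 0.282 TPM in edited libraries. The epithelial gene EPCAM, on another chromosome, was at 19.1 and 19.2 TPM in parental and at 5.33 to 12.6 TPM in edited libraries. Its part in the results was not tested.

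Summed over the 58 members, the parental libraries held 5627 and 5620 TPM. The 12 edited libraries held 3831 to 4154 TPM, which was 68.1% to 73.9% of the parental sum, and no edited library reached the parental sums. The 2 libraries of a line lay close together, at 4028 and 3959 TPM in SAP30-KO1, 4023 and 3980 TPM in SAP30-KO2, 4136 and 4154 TPM in SIN3A+SIN3B-DKO1, 4080 and 4062 TPM in SIN3A+SIN3B-DKO2, 3841 and 3846 TPM in MLL1-KO1, and 3846 and 3831 TPM in MLL1-KO2. The MLL1-KO libraries were the lowest and the SIN3A+SIN3B-DKO libraries the highest of the edited ones.

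The median member differed from parental by -0.49 in SAP30-KO1, -0.46 in SAP30-KO2, -0.49 in SIN3A+SIN3B-DKO1, -0.48 in SIN3A+SIN3B-DKO2, -0.54 in MLL1-KO1 and -0.51 in MLL1-KO2, all as log2 fold changes of TPM with 0.5 added. Within single libraries the median of the members ranged from -0.57 to -0.45, that of the other 16q genes from -0.52 to -0.37, that of 16p from 0.02 to 0.11 and that of all tested genes from -0.10 to 0.04. The members and the rest of 16q therefore lay apart from 16p in all 12 edited libraries. Of 348 pairs of a member and a line, 333 lay below 0, and 50 of 58 members lay below 0 in all 6 lines.

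A gene was called in a line at an adjusted p under 0.05 (limma, Benjamini-Hochberg over the 13540 genes, no fold minimum). In SAP30-KO1, 53 members were called lower, where 22.9% of all tested genes were called lower and 28.1% higher. SAP30-KO2 also had 53, against 24.8% of all genes lower and 26.9% higher. The libraries labelled SIN3A+SIN3B-DKO1 and SIN3A+SIN3B-DKO2 had 51 each, against 28.2% and 23.9% of all genes lower and 27.8% and 25.7% higher. MLL1-KO1 had 54, against 38.7% lower and 21.8% higher, and MLL1-KO2 had 52, against 36.2% lower and 28% higher. The split over all genes depended on the scaling in MLL1-KO1, where 63.9% of called genes were lower in the values as deposited, 47.0% with quantile normalization and 51.03% with median ratio scaling. Because the members were picked on these same contrasts, the counts only restate how they were picked. The 6 contrasts also share the 2 parental libraries, so they are not independent of each other.

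All 12 edited libraries lay below both parental libraries for 48 of 58 members, for 120 of 199 other 16q genes and for 13 of 299 genes of 16p, where the share over all tested genes was 14.5%. In all 6 lines, 46 members, 96 other 16q genes and 7 genes of 16p were called lower, against 9.39% of all tested genes. A 1.5-fold minimum on top of the adjusted p left 18, 17, 18, 11, 28 and 23 members called lower in the order SAP30-KO1, SAP30-KO2, SIN3A+SIN3B-DKO1, SIN3A+SIN3B-DKO2, MLL1-KO1 and MLL1-KO2, against 7.86%, 8.12%, 8.66%, 7.56%, 16.3% and 14.9% of all tested genes. The counts were smaller than without the minimum, since the median member sat at 68.9% to 72.5% of its parental level.

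**Figure D1:**
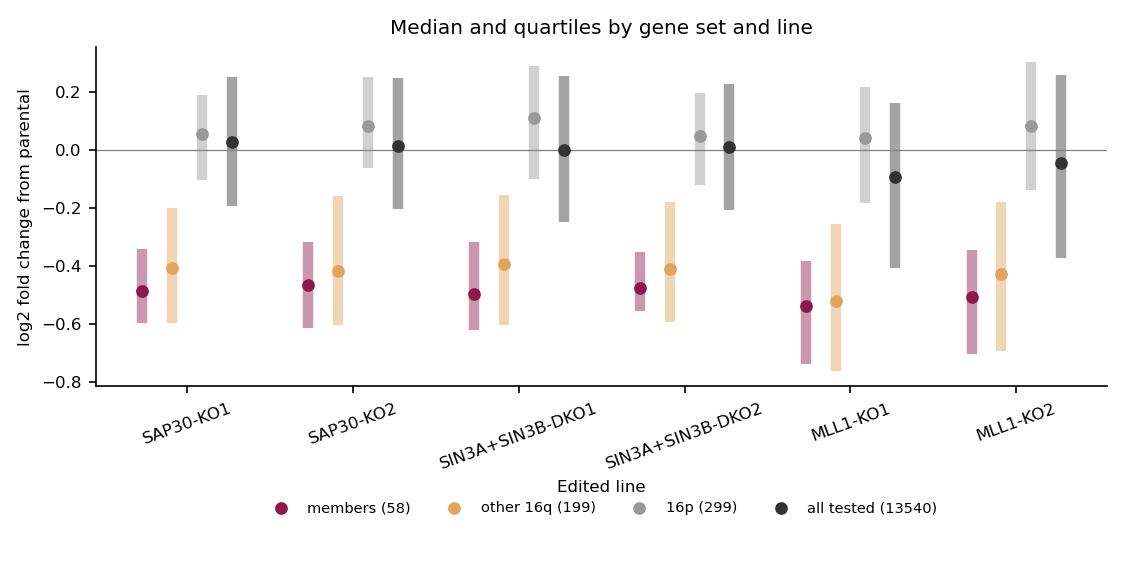
Log2 fold change from parental (y axis) in the 6 edited lines (x axis) for members, other 16q genes, 16p genes and all tested genes. Points are medians over genes and bars run from the lower to the upper quartile. Medians of the members lie between -0.54 and -0.46 and those of the other 16q genes between -0.52 and -0.39, while 16p stays above 0 in all 6 lines.

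The lower level began at the first tested 16q gene and continued to the last. The last tested 16p genes, ZNF267 and the pseudogene UBE2MP1, had mean log2 fold changes over the 6 lines of 0.15 and 0.00. Across the centromere, SHCBP1, which is no member, averaged -0.65. The first member, VPS35 (chr16:46690044-46723430, minus strand), the cargo recognition subunit of retromer, was at 229 and 232 TPM in the parental libraries and at 139 to 174 TPM, with a median of 158 TPM, in the 12 edited ones. Its groups did not overlap, and its log2 fold changes ranged from -0.71 to -0.46. The neighbouring ORC6, the smallest subunit of the origin recognition complex, was at 71.6 and 74.6 TPM against 45.6 to 64.1 TPM.

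GAS8, the last member and a subunit of the ciliary nexin-dynein regulatory complex, closed the arm at 25.4 and 24.9 TPM in the parental libraries. It was at 18.9 and 20.7 TPM in SAP30-KO1, 18.2 and 18.1 TPM in SAP30-KO2, 21.1 and 20.5 TPM in SIN3A+SIN3B-DKO1, 20.1 and 19.2 TPM in SIN3A+SIN3B-DKO2, 13.3 and 14.4 TPM in MLL1-KO1 and 12.9 and 13.2 TPM in MLL1-KO2. All 12 edited libraries were lower than both parental ones, the MLL1-KO libraries most of all. In windows along the arm (46 to 56, 56 to 66, 66 to 71, 71 to 81 and 81 to 91 Mb), the median of all tested genes lay between -0.66 and -0.30 in each line, and in 4 windows of 16p between -0.15 and 0.27.

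**Figure D2:**
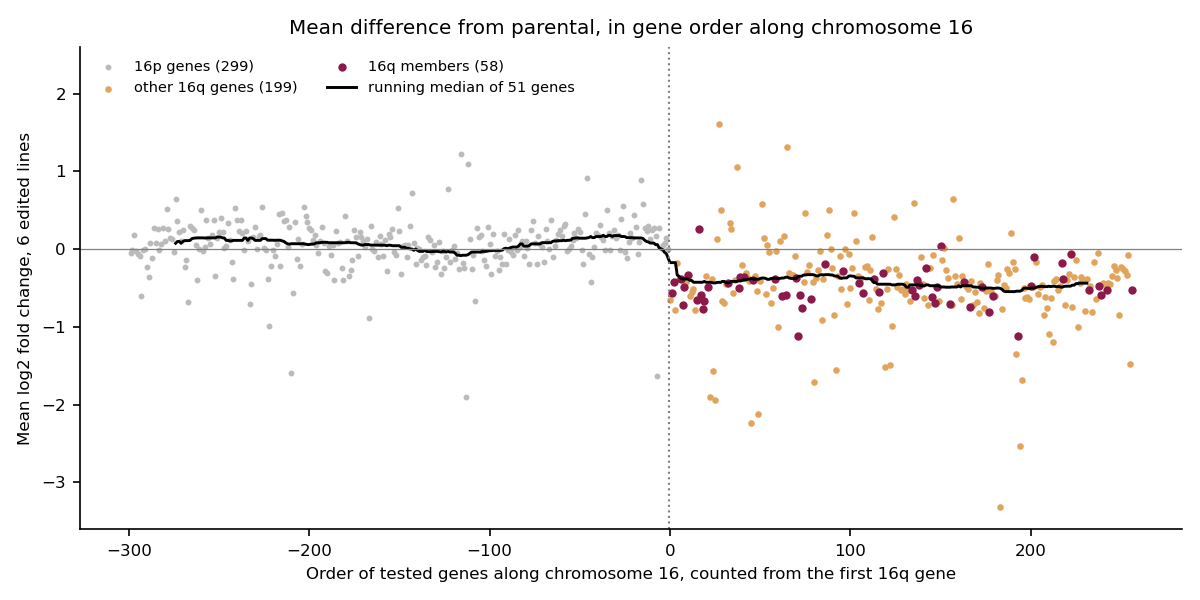
Mean log2 fold change over the 6 edited lines (y axis) for each tested gene of chromosome 16 in gene order (x axis, 0 is the first 16q gene, the dotted line marks the centromere). Grey points are 299 genes of 16p, orange points 199 other 16q genes and dark points the 58 members. The black line is a running median of 51 genes that steps down at the centromere and stays below 0 along 16q as far as it is drawn. It stops short of the last genes of the arm, where its window is not full.

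Placed in consecutive blocks of 50 tested genes, the genome gave 246 blocks. In 9 of them the median lay below -0.3 in all 6 lines, a limit chosen after the values were seen, and 4 of these 9 were among the 5 blocks that lie on 16q and hold members. The other 5 lay on chromosome 13 (72012098 to 101241782), on chromosome 17 (27051366 to 33600674, 33737941 to 38293170 and 57936840 to 65736915) and on chromosome 6 (291630 to 12165232), so 16q was not the only stretch of this kind. The fifth 16q block (57546093 to 67701168) was less low in SAP30-KO1, SAP30-KO2, SIN3A+SIN3B-DKO1 and SIN3A+SIN3B-DKO2, at -0.23, -0.18, -0.24 and -0.25. It was at -0.52 in MLL1-KO1 and -0.40 in MLL1-KO2.

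The 10 members with roles in RNA, translation and nuclear transport had a median of -0.46 for their mean log2 fold change over the 6 lines. Of these, 9 of the 10 were called lower in all 6, against 9.39% of all tested genes. Members and role groups were chosen with results of these data known. The counts and medians by role therefore restate the picking and test no role. NUTF2, which carries Ran into the nucleus, had the highest level of any member, at 546 and 549 TPM in parental and 370 to 448 TPM in edited libraries. CNOT1, the scaffold of the CCR4-NOT deadenylase, was at 155 and 150 TPM against 92.4 to 113 TPM. The 2 transfer RNA synthetases stood at opposite ends of the group. KARS, the lysyl enzyme, averaged -0.60 and was called lower in every line, and AARS, the alanyl enzyme, averaged -0.24 and was called lower in 5. SF3B3, of the SF3b splicing complex, and the splicing helicase DHX38 averaged -0.49 and -0.42, and the RNA demethylase FTO averaged -0.49.

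**Figure D3:**
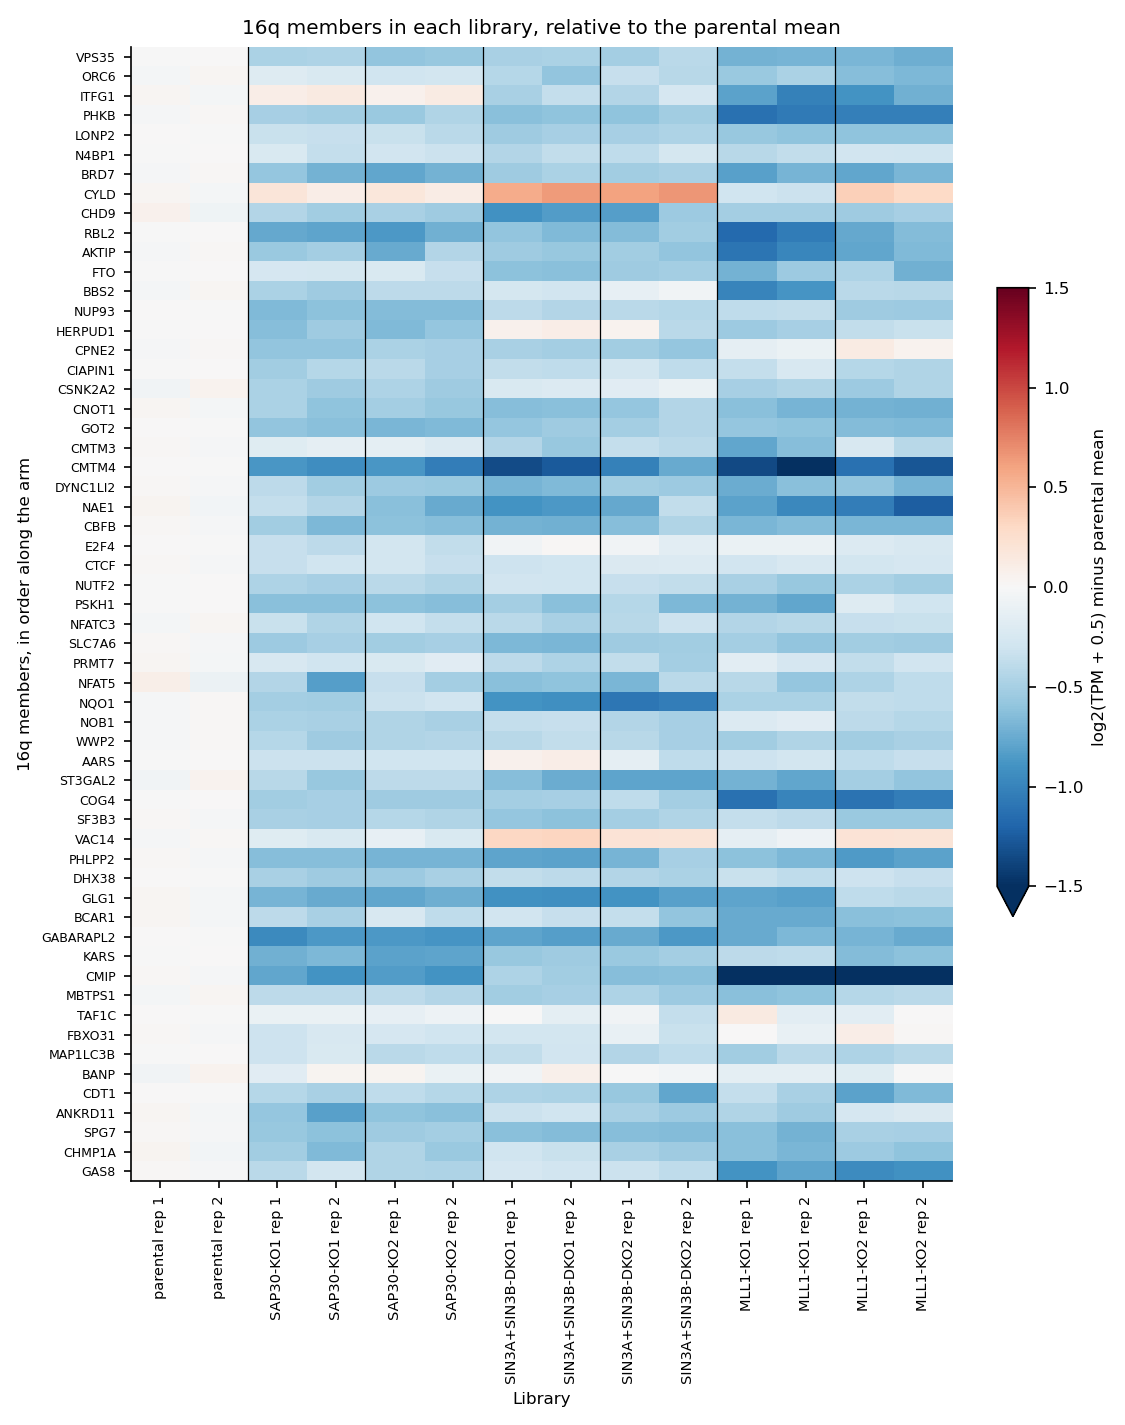
The 58 members (rows, in order along the arm) in the 14 libraries (columns), as log2 of TPM plus 0.5 minus the parental mean of the gene. Blue is lower and red higher than parental, and the colour scale ends at -1.5 and 1.5. In each edited library 52 to 58 of the 58 members lie below the parental mean, and CYLD and VAC14 are among the rows with values above it.

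The 14 members with roles in chromatin, transcription and replication had a median of -0.45. In all 6 lines 11 were called lower, against 9.39% of all tested genes. RBL2, the retinoblastoma family protein p130, was the lowest of them at a mean of -0.77, from 36.3 and 36.8 TPM in parental to between 15.99 and 25.3 TPM. CTCF was at 92.0 and 89.1 TPM in parental and at 70.9 to 78.6 TPM in edited libraries. Its decrease was smaller than the common one in all 6 lines, although the groups did not overlap. CBFB, the partner of the RUNX factors, went from 90.02 and 87.8 TPM to between 53.9 and 64.7 TPM, and the remodelling subunit BRD7 from 94.0 and 96.4 TPM to between 54.0 and 68.4 TPM. The licensing factor CDT1 averaged -0.53. E2F4, the repressive E2F of the DREAM complex, averaged -0.19 and was called lower in 3 lines.

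The 8 members of metabolism and mitochondria had the lowest group median, -0.59. All 8 were called lower in all 6 lines, where 9.39% of all tested genes were. PHKB, a regulatory subunit of phosphorylase kinase, averaged -0.72, and its MLL1-KO libraries (24.99 to 26.7 TPM) lay below all other edited ones (35.2 to 39.7 TPM). GOT2, the mitochondrial aspartate aminotransferase, was at 280 and 279 TPM against 173 to 206 TPM. Paraplegin (SPG7) averaged -0.59, and the iron-sulfur assembly factor CIAPIN1 -0.39. NQO1, the quinone oxidoreductase, averaged -0.61 and is described with the differences between lines.

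Among the 12 members of signalling and cytoskeleton the median was -0.51. Of these, 8 were called lower in all 6 lines, against 9.39% of all tested genes, and all 12 in at least 4. The adaptor CMIP was lowest at -1.12 and the copine CPNE2 highest at -0.36. DYNC1LI2, a light intermediate chain of dynein, was at 138 and 134 TPM in parental and at 80.9 to 103 TPM in edited libraries, and the phosphatase PHLPP2, which acts on AKT, was at 15.96 and 15.7 TPM against 8.58 to 11.05 TPM. Its groups did not overlap, and its log2 fold changes ran from -0.83 to -0.60. The catalytic subunit CSNK2A2 of casein kinase 2 averaged -0.39.

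The 14 members of trafficking and proteostasis had a median of -0.50. In all 6 lines 10 were called lower, against 9.39% of all tested genes. The autophagy gene GABARAPL2 had the lowest mean of the group at -0.81, from 125 TPM in both parental libraries to between 64.2 and 78.2 TPM. Its relative MAP1LC3B, which encodes LC3B, averaged -0.38 from 157 TPM in both. COG4, of the Golgi tethering complex, and NAE1, of the enzyme that activates NEDD8, averaged -0.69 and -0.76. CYLD was the highest of the group and of all members.

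The common shift of each line was taken as the median of the 199 other tested 16q genes, which does not depend on the members. It was -0.41 in SAP30-KO1, -0.42 in SAP30-KO2, -0.39 in SIN3A+SIN3B-DKO1, -0.41 in SIN3A+SIN3B-DKO2, -0.52 in MLL1-KO1 and -0.43 in MLL1-KO2, or 69.8% to 76.2% of parental. On average over the lines, 40 of 58 members lay within 0.2 of it. A member was said to depart in a line where its log2 fold change differed from the common shift by at least 0.58, which is 1.5-fold. This held for 16 of 348 pairs of member and line, and 49 members departed in no line. The departures were 0 in both SAP30-KO lines, 3 in each of SIN3A+SIN3B-DKO1, SIN3A+SIN3B-DKO2 and MLL1-KO1, and 7 in MLL1-KO2.

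CYLD, VAC14, CMTM4 and CMIP departed in at least 2 lines. CYLD encodes a deubiquitinase that restrains NF-kappaB signalling. It was at 15.5 and 14.8 TPM in parental, 17.3 and 16.3 TPM in SAP30-KO1, 17.1 and 16.5 TPM in SAP30-KO2, 22.5 and 23.9 TPM in SIN3A+SIN3B-DKO1, 23.4 and 24.2 TPM in SIN3A+SIN3B-DKO2, 12.3 and 11.99 TPM in MLL1-KO1 and 19.5 and 18.7 TPM in MLL1-KO2. Only the MLL1-KO1 libraries were below both parental ones, and the other 10 edited libraries were above them. Its log2 fold changes ran from -0.31 in MLL1-KO1 to 0.63 in SIN3A+SIN3B-DKO2 (SE 0.06 in each line), it was called higher in 3 lines and lower in 1, and its mean distance above the common shift was 0.68.

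VAC14, the scaffold of the PIKFYVE lipid kinase complex, was at 64.4 and 65.5 TPM in parental. It was at 57.2, 55.6, 59.6 and 55.5 TPM in the 4 SAP30-KO libraries, 80.8, 81.4, 75.1 and 74.5 TPM in the 4 SIN3A+SIN3B-DKO libraries, 59.3 and 61.6 TPM in MLL1-KO1 and 75.2 and 74.6 TPM in MLL1-KO2. It was called lower in 3 lines and higher in the other 3, and lay 0.47 above the common shift on average (SE 0.04 in each line). With no filter on low values VAC14 no longer departed in at least 2 lines.

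CMTM4 and CMIP departed in the other direction. CMTM4, a MARVEL domain membrane protein, had the lowest level of any member in parental cells, at 13.5 TPM in both libraries. It was at 7.17 and 6.83 TPM in SAP30-KO1, 7.12 and 6.33 TPM in SAP30-KO2, 5.03 and 5.35 TPM in SIN3A+SIN3B-DKO1, 6.44 and 7.77 TPM in SIN3A+SIN3B-DKO2, 5.00 and 4.37 TPM in MLL1-KO1 and 5.95 and 5.27 TPM in MLL1-KO2. No edited library reached 8 TPM, the mean log2 fold change was -1.11 (SE 0.11 in each line), and the mean distance below the common shift was 0.69. Its neighbour CMTM3, of the same protein family, averaged -0.38 and lay near the common shift.

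CMIP was at 210 and 204 TPM in parental, 121 and 111 TPM in SAP30-KO1, 115 and 111 TPM in SAP30-KO2, 150 and 144 TPM in SIN3A+SIN3B-DKO1, 133 and 134 TPM in SIN3A+SIN3B-DKO2, 70.8 and 69.5 TPM in MLL1-KO1 and 39.5 and 40.6 TPM in MLL1-KO2. The MLL1-KO libraries were far below the other edited ones, and it departed in these lines alone, at log2 fold changes of -1.55 in MLL1-KO1 and -2.35 in MLL1-KO2 (SE 0.04). In the other 4 lines CMIP lay between -0.87 and -0.49. With a 2-fold limit in place of 1.5-fold, CMIP alone departed in at least 2 lines.

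PHKB, RBL2, NAE1, NQO1 and COG4 departed in 1 line each. A further pair of members, singled out after their values were seen, stayed near parental everywhere without reaching the departure limit. BANP, a DNA-binding nuclear protein, was at 16.9 and 18.3 TPM in parental and at 15.5 to 18.5 TPM in edited libraries, and TAF1C, of the RNA polymerase I factor SL1, at 18.1 and 18.01 TPM against 13.97 to 19.97 TPM. Both were called in no line, and their groups overlapped. Together with CYLD, E2F4, CTCF, AARS, VAC14 and the F-box gene FBXO31 they made up the 8 members above the common shift in all 6 lines, while 16 members lay below it in all 6.

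By the mean absolute departure over the 6 lines, the members closest to the common shift were WWP2, MAP1LC3B and NUTF2. WWP2, a HECT ubiquitin ligase, was at 32.1 and 33.0 TPM in parental, 24.1, 22.4, 23.6 and 23.9 TPM in the SAP30-KO libraries, 24.3, 25.1, 24.2 and 22.9 TPM in the SIN3A+SIN3B-DKO libraries and 22.6, 23.7, 22.6 and 23.2 TPM in the MLL1-KO libraries. The 12 edited libraries of WWP2 thus spanned less than 3 TPM across 3 genotypes. MAP1LC3B was at 109 to 134 TPM, with a median of 120 TPM, in the edited libraries.

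**Figure D4:**
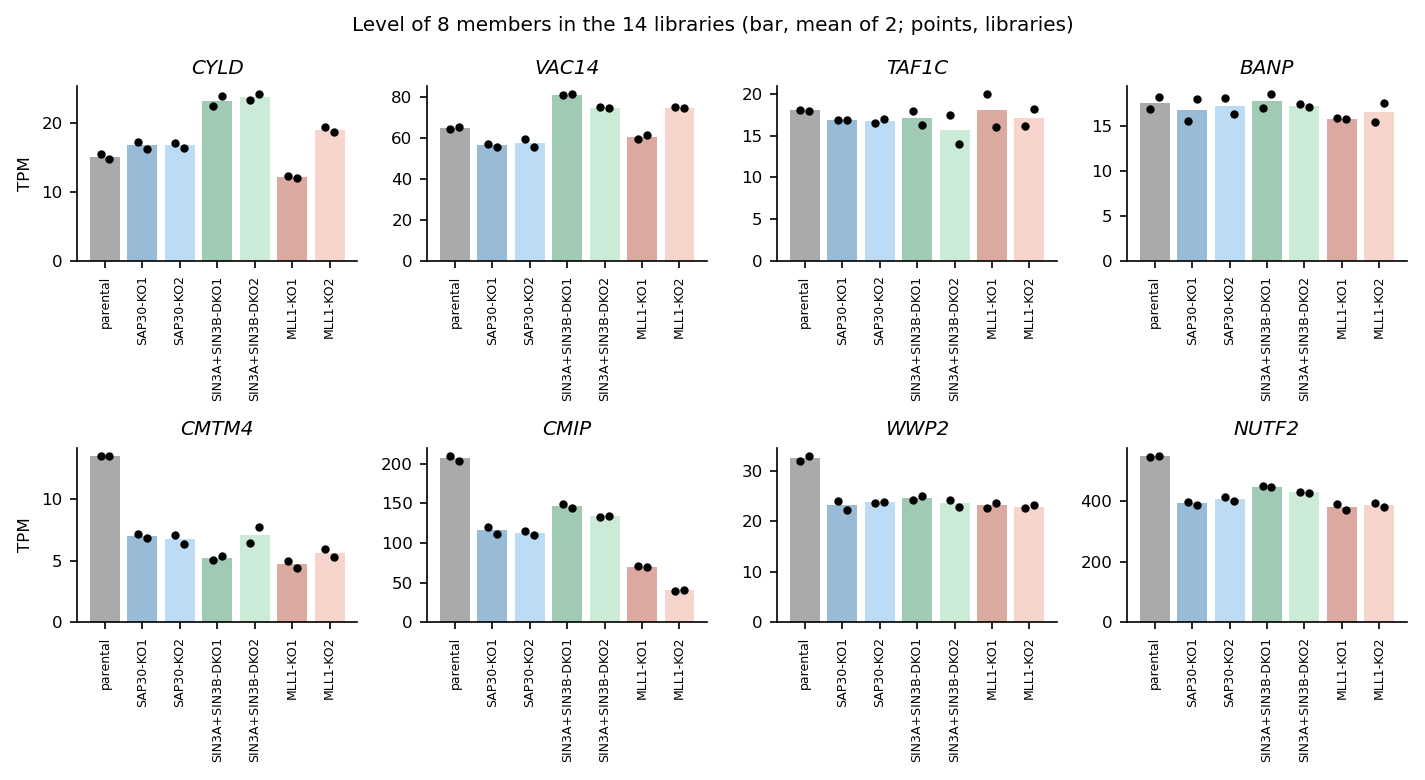
TPM (y axis, from 0) of CYLD, VAC14, TAF1C, BANP, CMTM4, CMIP, WWP2 and NUTF2 in the 7 groups (x axis). Bars are means of 2 libraries and points are the libraries. CYLD and VAC14 reach above parental in the SIN3A+SIN3B-DKO lines, TAF1C and BANP overlap parental, CMTM4 and CMIP are the lowest relative to parental, and WWP2 and NUTF2 show the usual size of the difference.

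Promoter letters of the departing genes and of WWP2 are shown because these genes lay farthest from, and closest to, the rest of the arm. Each was cut from the 250 bases before the first start listed in RefSeq (GRCh38 table) and was placed by exact match on GRCh37. Bases inside annotated exons are left out, so the CYLD stretch ends 106 bases before that start and the other 4 end within 4 bases of it, and capitals mark CpG, the dinucleotide that the CXXC domain of MLL1 binds when it is unmethylated.
CYLD, chr16:50775817-50775960, plus strand: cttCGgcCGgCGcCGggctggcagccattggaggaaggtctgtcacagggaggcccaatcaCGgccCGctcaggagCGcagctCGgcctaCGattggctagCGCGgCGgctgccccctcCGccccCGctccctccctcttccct
VAC14, chr16:70835064-70835311, minus strand: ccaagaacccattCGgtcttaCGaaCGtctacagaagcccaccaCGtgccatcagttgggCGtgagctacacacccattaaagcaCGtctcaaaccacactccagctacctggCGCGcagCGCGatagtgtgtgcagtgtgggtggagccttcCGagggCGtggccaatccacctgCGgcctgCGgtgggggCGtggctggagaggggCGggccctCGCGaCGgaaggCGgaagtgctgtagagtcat
CMTM4, chr16:66730647-66730896, minus strand: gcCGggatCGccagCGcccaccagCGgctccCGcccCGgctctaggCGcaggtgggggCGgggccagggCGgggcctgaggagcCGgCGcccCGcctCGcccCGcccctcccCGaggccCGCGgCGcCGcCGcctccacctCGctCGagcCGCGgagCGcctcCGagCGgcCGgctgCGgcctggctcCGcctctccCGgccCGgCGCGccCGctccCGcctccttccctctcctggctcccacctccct
CMIP, chr16:81478163-81478412, plus strand: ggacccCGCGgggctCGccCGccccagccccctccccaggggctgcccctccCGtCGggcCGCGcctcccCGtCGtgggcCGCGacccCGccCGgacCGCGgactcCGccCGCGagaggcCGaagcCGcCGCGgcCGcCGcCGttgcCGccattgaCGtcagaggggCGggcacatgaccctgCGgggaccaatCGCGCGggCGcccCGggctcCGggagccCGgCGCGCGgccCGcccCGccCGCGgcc
WWP2, chr16:69795985-69796230, plus strand: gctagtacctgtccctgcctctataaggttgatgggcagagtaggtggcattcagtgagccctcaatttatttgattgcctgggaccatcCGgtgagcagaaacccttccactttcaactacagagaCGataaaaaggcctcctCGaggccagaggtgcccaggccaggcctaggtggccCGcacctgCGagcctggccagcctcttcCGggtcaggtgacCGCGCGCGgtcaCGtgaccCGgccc

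A window was listed for 51 of the 58 members. CMIP, the member lowest in the MLL1-KO lines, had 44 CpG in its 250 bases, the most of the 51, and CDT1, DYNC1LI2 and CTCF, which departed in no line, followed with 42, 40 and 39. CMTM4 had 36, CYLD 25, VAC14 20 and WWP2 13. MAP1LC3B and NUTF2, also among the closest to the common shift, had 33 and 21. Their letters are not shown because too short a stretch lay outside annotated exons. The median member had 25 CpG, the other 16q genes 23 and all tested genes with a window 21. GGGCGG, searched on both strands, was in the windows of 76.5% of the members, 71.2% of the other 16q genes and 67.5% of all tested genes. CCAAT, on both strands, was in 31.4%, 35.3% and 35.5%, and TATAAA, on both strands, in 3.92%, 5.23% and 5.40%. A match of letters marks neither a bound site nor a cause.

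The contrasts between edited lines were not themselves used to pick the members (limma, adjusted over 13540 genes). The picking did use the edited libraries, since every line had to be lower, and so it favoured similar levels between lines. The parental libraries enter no difference here, but they do enter the error that all contrasts share. Between SAP30-KO1 and SAP30-KO2, 1 member differed, NQO1, where 0.524% of all tested genes did. NQO1 was at 249 and 247 TPM in SAP30-KO1 and at 283 and 291 TPM in SAP30-KO2, a difference of -0.21 with an adjusted p of 0.0129 by limma. The groups did not overlap, but the call was lost whenever any of these 4 libraries was left out, where the limma adjusted p ranged up to 0.138.

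Between SIN3A+SIN3B-DKO1 and SIN3A+SIN3B-DKO2, 8 members differed, against 12.5% of all tested genes, and 1 to 18 did when single libraries were left out. AARS was at 231 and 238 TPM in the first and at 201 and 170 TPM in the second, a difference of 0.34 with a limma adjusted p of 0.00499. The AARS difference was 0.22 without SIN3A+SIN3B-DKO2 replicate 2 and 0.46 without replicate 1 of that line, and without SIN3A+SIN3B-DKO1 replicate 2 the limma adjusted p was 0.0508. CMTM4 differed by -0.41 with a limma adjusted p of 0.0328, and its call was lost when 1 of 5 libraries (either parental, either SIN3A+SIN3B-DKO1, or SIN3A+SIN3B-DKO2 replicate 2) was left out. The share of members that differed was close to that of all genes.

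Between MLL1-KO1 and MLL1-KO2, 22 of 58 members differed, against 42.1% of all tested genes. CMIP differed by 0.80, at 70.8 and 69.5 TPM in MLL1-KO1 against 39.5 and 40.6 TPM in MLL1-KO2, with a limma adjusted p of 2.26e-07 (SE 0.04). CYLD differed by -0.63, at 12.3 and 11.99 TPM against 19.5 and 18.7 TPM, with a limma adjusted p of 1e-05 (SE 0.06). These 2 were the only members called between the MLL1-KO lines with a difference of at least 1.5-fold, where 10.4% of all tested genes were.

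Between genotypes, with the 2 lines of each averaged, 35 members differed between SAP30-KO and SIN3A+SIN3B-DKO against 48.6% of all tested genes, 35 between MLL1-KO and SAP30-KO against 67.8%, and 36 between MLL1-KO and SIN3A+SIN3B-DKO against 67.8%. The limma error comes from the 2 libraries of each line, so the p-values leave out the spread between the 2 lines of a genotype. With the 1.5-fold minimum 0, 2 and 3 members were called, against 7.47%, 19.8% and 19.9% of all tested genes, and 0 within the SAP30-KO and SIN3A+SIN3B-DKO pairs, against 0.148% and 2.23%. The median differences over the members were -0.01, -0.05 and -0.06. Single members differed in both directions while the median member lay at nearly the same level, which the picking of the members favours. NQO1 was at 247 to 291 TPM in the SAP30-KO libraries and at 167 to 190 TPM in the SIN3A+SIN3B-DKO libraries, a difference of 0.58 with a limma adjusted p of 7.08e-09. HERPUD1, a component of ER-associated degradation that ER stress induces, was at 62.7 to 68.7 TPM against 74.9 to 107 TPM, a difference of -0.56 with a limma adjusted p of 0.000159. The SIN3A+SIN3B-DKO2 libraries of HERPUD1 were far apart, at 104 and 74.9 TPM.

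ITFG1, a transmembrane protein with integrin alpha repeats, was at 97.5 and 93.5 TPM in parental and at 102, 105, 99.8 and 104 TPM in the SAP30-KO libraries, the only genotype in which it was not lower. It was at 67.8 to 80.1 TPM in the SIN3A+SIN3B-DKO and at 47.0 to 57.9 TPM in the MLL1-KO libraries, and MLL1-KO differed from SAP30-KO by -0.96 with a limma adjusted p of 1.21e-07. CMIP differed between MLL1-KO and SAP30-KO by -1.10 with a limma adjusted p of 1.44e-10, and between MLL1-KO and SIN3A+SIN3B-DKO by -1.39 with one of 2.2e-11. CYLD differed between the latter 2 genotypes by -0.61 with a limma adjusted p of 1.78e-07, and its MLL1-KO libraries at 11.99 to 19.5 TPM did not overlap the SIN3A+SIN3B-DKO libraries at 22.5 to 24.2 TPM. The 2 MLL1-KO lines themselves differed by 0.80 in CMIP and by -0.63 in CYLD, a spread that these p-values leave out.

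The members that work in complexes were set beside 89 tested partners from 18 textbook complexes or pairs, 85 of them placed off 16q and 4 without a position. The median partner had a mean log2 fold change of -0.01 over the 6 lines, the same as the median of all tested genes, and 50 of 89 were below 0. By line 19, 23, 18, 14, 27 and 43 partners were called lower and 27, 22, 29, 28, 15 and 13 higher, in the order SAP30-KO1, SAP30-KO2, SIN3A+SIN3B-DKO1, SIN3A+SIN3B-DKO2, MLL1-KO1 and MLL1-KO2. In that order, 22.9%, 24.8%, 28.2%, 23.9%, 38.7% and 36.2% of all tested genes were called lower. The shares of all tested genes called higher were 28.1%, 26.9%, 27.8%, 25.7%, 21.8% and 28%. In all 6 lines, 6 of 89 were called lower and 3 higher, against 9.39% and 6.3% of all tested genes. For 13 partners all 12 edited libraries were below both parental ones, against 14.5% of all tested genes. With the 1.5-fold minimum 4, 4, 7, 0, 5 and 6 partners were called in either direction in the same order of lines, against 15.7%, 15.6%, 16.4%, 13.6%, 23.2% and 25.2% of all tested genes. The lists were assembled with results of these data known.

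The member was lower than the median of its partners in 16 of 18 complexes, and lower than every partner in 14, where the members of a complex with 2 of them were averaged. The members were picked as lower than parental, so these counts largely restate that choice. CNOT1 averaged -0.60, and its 9 CCR4-NOT partners ran from -0.20 to 0.30. NAE1 averaged -0.76 while its 3 NEDD8 partners ran from -0.24 to 0.29, and PHKB averaged -0.72 beside phosphorylase kinase subunits at -0.02 and 0.13. The 16 other cytosolic transfer RNA synthetases ran from -0.14 to 0.37, above both AARS and KARS. COG4 averaged -0.69 against -0.45 to 0.08 for 6 other COG subunits.

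Some partners were as low as the members. VPS26B, which pairs with VPS35 in retromer and lies on chromosome 11, averaged -0.67 and was called lower in all 6 lines, below VPS35 itself at -0.57. In 9 blocks of 50 genes on chromosome 11 the median lay below -0.3 in 1 or more lines, and a link to VPS26B was not tested. NUP188, which binds NUP93 in the inner ring of the nuclear pore, averaged -0.66 against -0.51 for NUP93, and was also called lower in all 6 lines. So were the replication factor MCM3 at -0.48 and the licensing inhibitor GMNN at -0.47, close to CDT1 at -0.53, and RBBP4 at -0.41 and TFDP1 at -0.21 of the DREAM complex. TAF1C at -0.09 and VAC14 at 0.04 lay above the medians of their partners, -0.23 for SL1 and -0.17 for the PIKFYVE complex. E2F4 at -0.19 was not below all DREAM partners, although RBL2 was. Higher in all 6 lines were SF3B4 at 0.22, LIN37 at 0.48 and AFG3L2, the partner of SPG7, at 0.31.

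**Figure D5:**
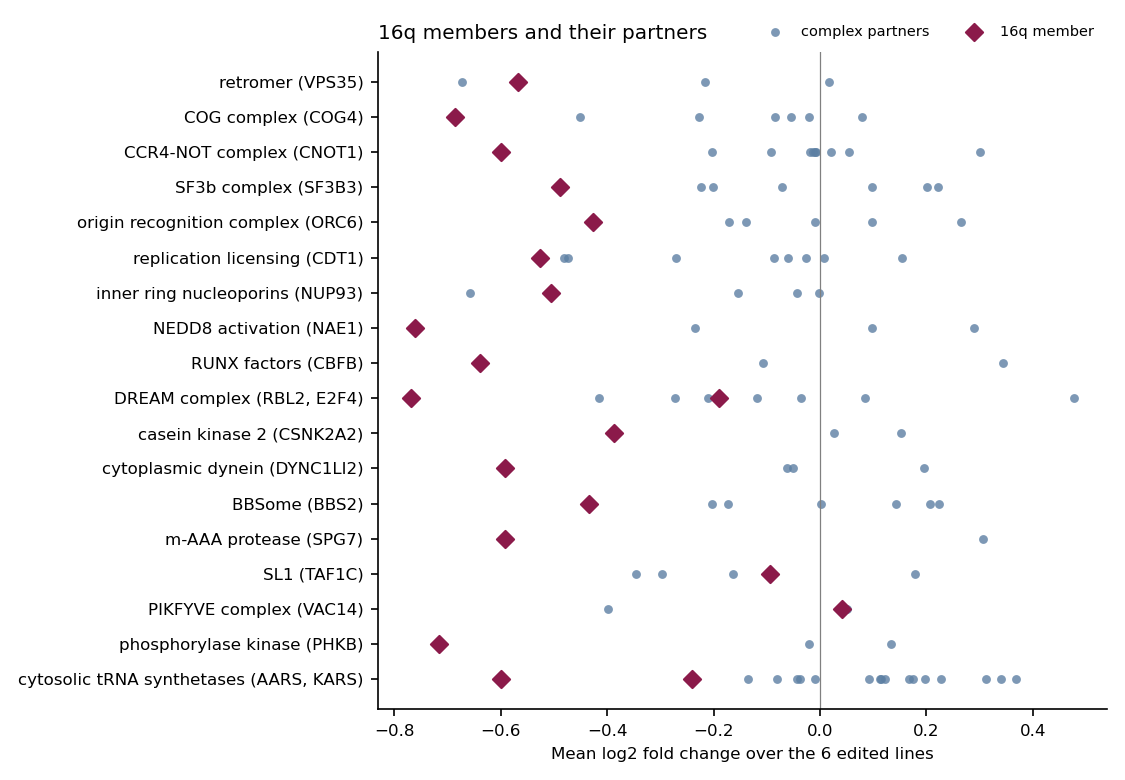
Mean log2 fold change over the 6 edited lines (x axis) for members (dark diamonds) and their complex partners (blue points) in 18 complexes or pairs (y axis, member in brackets). In 14 of 18 rows the member, or the mean of 2 members, lies to the left of every partner, and the median partner lies at -0.01. The members were picked as lower than parental.

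Outside the members, the 16q genes named here are those with the most extreme means at a parental mean of at least 10 TPM. Genes under that level went further, such as VAT1L at -3.31 and GNAO1 at 1.61. Among the genes that reached it, PLLP at -2.23, DOK4 at -2.12 and B3GNT9 at -1.71 had the lowest means. These were called lower in all 6 lines. CDH11, a mesenchymal cadherin, at 1.31 and MT1X, a metallothionein, at 1.06 were called higher in all 6, and GPR56 at 0.58 in 4. The widest member means, -1.12 for CMIP and 0.26 for CYLD, lay inside this range, and 28 of the 199 other 16q genes were called higher in at least 1 line. In single lines 4.52% to 7.54% of these genes were called higher, against 21.8% to 28.1% of all tested genes.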

How the data were processed

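RNA of the 14 libraries was sequenced after mRNA library preparation on an Illumina NextSeq. The submitters' processing notes list FastQC 0.11.2, TopHat, featureCounts and hg19. The authors deposited TPM values under the name RPKM, 1 column per library, and each column adds up to 1000000. The annotation release and strand setting are not given in the sources used here. Genes were placed on GRCh37 by symbol with GENCODE 44 (16827 by current and 1288 by older symbols, 1295 not placed), and AARS and KARS by older symbols. In 28 rows a gene name had turned into a date.

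Whole reads could be recovered for 100% of rows with a value above 0 (within 0.02 of a whole read) and gave the depths. They serve in 1 alternative. Depth limits precision to counting error: the lowest member count was 141 reads (AKTIP).

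limma 3.58.1 (R 4.3.3) with an intensity trend was fitted to log2(TPM + 0.5) with 7 group means on all 14 libraries, for genes with at least 1 TPM in at least 2 libraries, with Benjamini-Hochberg adjustment over 13540 genes per contrast (7 residual and 3.6 prior degrees of freedom). Fold changes are on that scale and understate changes of low genes. The fit was tested on simulated data in which genes changed in a single line only, and far fewer of them than were called here. It therefore does not test the calls in the setting of these data. Same-numbered libraries did not deviate together (mean correlation 0.01 over 21 pairs of groups, from -0.07 to 0.08), so no block was used. Members, role groups and partner lists were chosen with earlier results of these data known. Named in full were members departing by 1.5-fold in at least 2 lines. The 3 with the smallest mean absolute departure from the common shift were also named. So were those at the ends of the arm or of the range of levels. The 2 with the largest called change per contrast of edited lines were added. Of other 16q genes with a parental mean of at least 10 TPM, the 3 highest and 3 lowest were named. Other pseudocounts, scalings, filters, limits, left-out libraries and reads were tried as alternatives.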

Additional observations from a re-analysis of the deposited data

Results flagged for a closer look

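The effect on 2 members differed between lines of the same genotype by the test of the difference itself. CYLD was lower than parental in MLL1-KO1 (-0.31) and higher in MLL1-KO2 (0.32), a difference of -0.63 (limma adjusted p 1e-05), and the 2 libraries of each line lay on the same side. CMIP was lower than parental in both MLL1-KO lines, by different amounts, with a difference of 0.80 (limma adjusted p 2.26e-07). Both differences kept their side of the threshold in every alternative run, at -0.66 to -0.61 for CYLD and 0.78 to 0.82 for CMIP with single libraries left out. Of all tested genes, 42.1% differed between these lines, and what set the differences was not tested.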

How the results depend on the processing

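Values are given in the order SAP30-KO1, SAP30-KO2, SIN3A+SIN3B-DKO1, SIN3A+SIN3B-DKO2, MLL1-KO1 and MLL1-KO2. The medians of the members and of the other 16q genes and the named differences kept their direction under all alternatives run, but the split of calls over all genes did not. With single libraries left out, the median of the members ranged from -0.51 to -0.47, -0.47 to -0.45, -0.49 to -0.48, -0.48 to -0.47, -0.58 to -0.54 and -0.51 to -0.51. That of the other 16q genes ranged from -0.41 to -0.38, -0.42 to -0.40, -0.41 to -0.37, -0.41 to -0.38, -0.52 to -0.50 and -0.44 to -0.42. The members called lower ranged from 50 to 53, 50 to 54, 50 to 51, 49 to 52, 50 to 55 and 48 to 52. The partners called ranged from 35 to 55, 31 to 49, 39 to 54, 33 to 47, 37 to 48 and 40 to 58.

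The median of the members was -0.50, -0.46, -0.49, -0.49, -0.47 and -0.46 with quantile normalization, -0.52, -0.49, -0.50, -0.50, -0.44 and -0.46 with median ratio scaling, and -0.47, -0.45, -0.46, -0.46, -0.48 and -0.48 with voom on the recovered reads. The median of the other 16q genes was -0.41, -0.42, -0.41, -0.41, -0.54 and -0.44 with a pseudocount of 0.1, -0.40, -0.40, -0.37, -0.40, -0.49 and -0.41 with a pseudocount of 1, -0.29, -0.29, -0.29, -0.29, -0.37 and -0.29 with no filter, -0.42, -0.42, -0.37, -0.40, -0.37 and -0.36 with quantile normalization, -0.44, -0.44, -0.40, -0.44, -0.42 and -0.38 with median ratio scaling, and -0.39, -0.40, -0.39, -0.40, -0.48 and -0.41 with voom. Without the filter more low genes entered the median.

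Quantile normalization moved the median of all genes by 0.13 in MLL1-KO1 and the lower share of called genes there from 63.9% to 47.0%, and median ratio scaling moved that share to 51.03%. The lower share went from 56.4% to 48.7% in MLL1-KO2 with quantile normalization and from 44.9% to 52.1% in SAP30-KO1 with median ratio scaling. Relative to the median of all genes, the members of MLL1-KO1 lay at -0.45 in the values as deposited and at -0.50 with quantile normalization. Voom called 3015 to 4629 genes lower and 3584 to 4237 higher than parental per line.

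With a 1.5-fold minimum, the members called lower were 18, 17, 18, 11, 28 and 23, and the partners called 4, 4, 7, 0, 5 and 6. At the adjusted p alone, 46, 45, 47, 42, 42 and 56 partners were called. Between edited lines the 1.5-fold minimum left 0 members for SAP30-KO1 minus SAP30-KO2, 0 for SIN3A+SIN3B-DKO1 minus SIN3A+SIN3B-DKO2, 2 (CYLD and CMIP) for MLL1-KO1 minus MLL1-KO2, 0 for SAP30-KO minus SIN3A+SIN3B-DKO, 2 (ITFG1 and CMIP) for MLL1-KO minus SAP30-KO and 3 (CYLD, COG4 and CMIP) for MLL1-KO minus SIN3A+SIN3B-DKO. In the same order, leaving out single libraries gave 0 to 1, 1 to 18, 16 to 25, 28 to 37, 32 to 38 and 29 to 37 members. The SIN3A+SIN3B-DKO pair gave 18 without SIN3A+SIN3B-DKO2 replicate 1, 1 without either SIN3A+SIN3B-DKO1 library, and 14 with voom. In that pair CMTM4 missed the threshold with no filter (limma adjusted p 0.0545), and AARS did without SIN3A+SIN3B-DKO1 replicate 2 (0.0508).

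The members departing in at least 2 lines were 8 with no filter (CMIP, CMTM4, COG4, CYLD, GABARAPL2, NAE1, NQO1 and PHKB) and 1 with the 2-fold limit (CMIP). They were 4 to 6 with single libraries left out, with PHKB and COG4 added without MLL1-KO1 replicate 2. CMIP, CMTM4 and CYLD were among them in all alternatives except the 2-fold limit. A replicate block, which the labels' numbers do not establish as a pairing, gave 53, 53, 51, 51, 53 and 52 members called lower and changed no call of a named member between edited lines.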
